A study of Homo sapiens with 3 samples.

Results

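The cycling cardiomyocytes (CMs) of day 21 (D21) chambered cardiac organoids (CCOs) were 98 of the 3602 D21 cell barcodes with 2001 to 7499 detected genes and under 20% of their unique molecular identifiers (UMIs) from the mitochondrial genome. All 3 libraries of the series together held 10039 such barcodes, of 17327 deposited. A barcode was taken as a CM when TNNT2, MYH6, MYL7 and TTN, which encode cardiac troponin T, alpha myosin heavy chain, the atrial regulatory light chain and titin, together made up at least 2% of its UMIs. It was taken as cycling when MKI67, TOP2A, CENPF, TPX2, NUSAP1 and UBE2C, which are expressed from S phase to mitosis, summed to at least 8 UMIs per 10000. The CM gate held 2024 D21 barcodes, so that 1926 other CMs, which fell below the cycling threshold, served as the comparison. Both gates are cuts through measured sums, and the cycling CMs are therefore a range of cells and not a separate type.

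The CCOs were grown from H7, a single human embryonic stem cell line, with no gene edit named in the labels. Cardiac mesoderm was induced with the WNT activator CHIR99021 and then the WNT inhibitor IWP-2, and the aggregates were grown in cardiosphere growing medium containing thrombin, cardiotrophin-1, EGF, FGF-2, WNT3A and EDN1 before they were moved to RPMI/B27 in a spinner flask at D14. All D21 cells, the comparison CMs included, had been through this protocol, and no treated group was sequenced. Cells of D8 and D14 had been through its earlier part only, so that day and stage of culture changed together. Dissociated organoids of D8, D14 and D21 were profiled as droplet libraries, with 1 library per day, and what belongs to the day cannot be told apart from what belongs to its library. No replicate error and no test can be given, and every 95% interval below covers counting error only.

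A dividing cell copies its DNA in S phase, prepares for division in G2, separates its chromosomes in mitosis (M phase) and cuts its cytoplasm at cytokinesis. Genes of these steps are expressed in waves. E2F factors control those of S phase, and the DREAM, B-MYB and FOXM1 complexes those of G2 and M phase. Fetal CMs divide while they contract, taking their sarcomeres apart for mitosis, and most leave the cell cycle around birth.

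The cycling CMs held 1587056 UMIs in all, with 4968 to 33287 UMIs per cell and a median of 14941, against a median of 12754 in the other CMs. The median number of detected genes was 3921 in cycling and 3369 in other CMs, and the median mitochondrial share was 10.5% and 12.3%. None of the 98 barcodes was shared with a kept barcode of D8 or D14, where pairs of libraries shared 14 to 16 barcodes. Scrublet, a doublet caller, marked 3 of the 3602 D21 barcodes (0.0833%) and so did not work in this library. Its median score was 0.0420 in cycling and 0.0430 in other CMs, and 11 cycling CMs (11.2%) lay in the highest 5% of scores against 6.07% of other CMs.

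The label was checked against its markers. TNNT2 was found in all 98 cycling CMs, at 7.68 to 132 UMIs per 10000 with a median of 45.5, against a median of 76.2 in the other CMs. MYH6 was likewise present in every cell, at 26.8 to 149 UMIs per 10000 and a median of 72.9. MKI67, the Ki-67 proliferation antigen, had at least 1 UMI in all but 1 of the cells, with a median of 3.85 and a highest value of 11.3 UMIs per 10000. TOP2A, the topoisomerase that untangles replicated chromosomes, was at 0 in 7 cells and had a median of 2.94. Markers of other cell types were mixed. The summed fibroblast markers had a median of 1 UMI per cell in cycling CMs and in other CMs, and 59 in cycling cells outside the CM gate. Epicardial, endothelial and epithelial markers had a median of 0 UMIs per cell in both CM groups. Smooth muscle markers had a median of 13.5 UMIs per cycling CM, 11 per other CM and 12 per cycling cell outside the gate. Hepatic markers had a median of 17 UMIs in both CM groups and 20 in cycling cells outside the gate. The values of the gate genes themselves describe the choice of cells.

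The cycling sum of the members ran from 8.05 to 104.8 UMIs per 10000, with a median of 21.5. UMIs of at least 3 of the 6 genes were found in all 98 cells, and all 6 genes were found in 72. The cut fell in a thin stretch of the distribution, with 5 cells between 8 and 9 and 11 cells between 7 and 8. The lowest members had 8.05, 8.16 and 8.33 UMIs per 10000, and the highest cells left out had 7.96, 7.88 and 7.81. In all, 49 CMs lay between 4 and 8, whereas 1331 of the other CMs (69.1%) had no UMI of any of the 6 genes. The CM sum was lower in the members, with a median of 3.36% against 4.70%, and 37 of them (37.8%) lay within 1 percentage point of the 2% cut compared with 9.35% of other CMs.

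**Figure D1:**
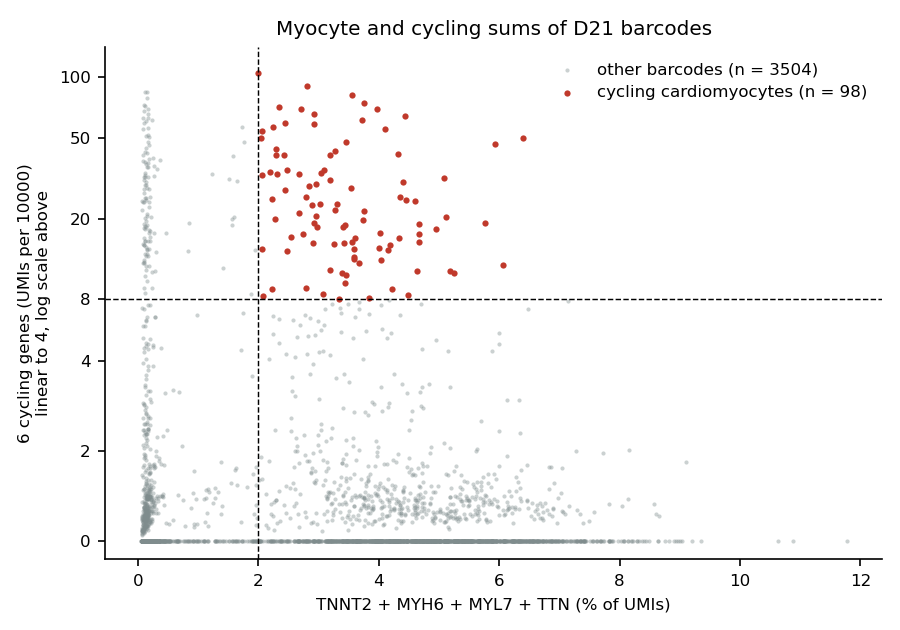
Each point is 1 of the 3602 kept D21 barcodes, with the share of its UMIs from the 4 myocyte genes in percent on the x axis and the sum of the 6 cycling genes in UMIs per 10000 on the y axis, which is linear up to 4 and logarithmic above. Dashed lines mark the cuts at 2% and 8, and the 98 cycling CMs (red) spread thinly over the upper right, mostly at CM sums below 5%.

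At D21, 4.84% of CMs were in the cycling gate (95% interval 3.95 to 5.87%, 98 of 2024). The same rule gave 3.44% at D14 (2.08 to 5.31%, 19 of 553), an interval that overlaps the one at D21, and 1 of 47 CMs at D8. Among cells outside the CM gate the cycling share was 14.7% at D8, 13.2% at D14 and 7.67% at D21 (6.40 to 9.09%). Within the D21 CMs, cycling cells made up 6.91% of those with under 10% mitochondrial UMIs (41 of 593) and 3.98% of those with 10 to 20% (57 of 1431). They also made up 8.70% of the 506 deepest CMs (44 cells) and 3.56% of each of 3 shallower sets of 506 (18 cells each). Read after each cell was thinned to 4000 UMIs, the same gates held 4.94% of CMs. The cycling share moved most with the CM sum that the gate used: it was 17.1% among CMs with a sum of 2 to 3% (37 of 217), 33 of 446 at 3 to 4%, 3.58% at 4 to 5%, 1.34% at 5 to 6% and 0.562% above (2 of 356). The share over all CMs therefore depends on the CM cut, with 37 of the 98 cycling CMs at a sum of 2 to 3%. The part of UMI number, mitochondrial share and CM sum in the differences between the groups was not tested.

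**Figure D2:**
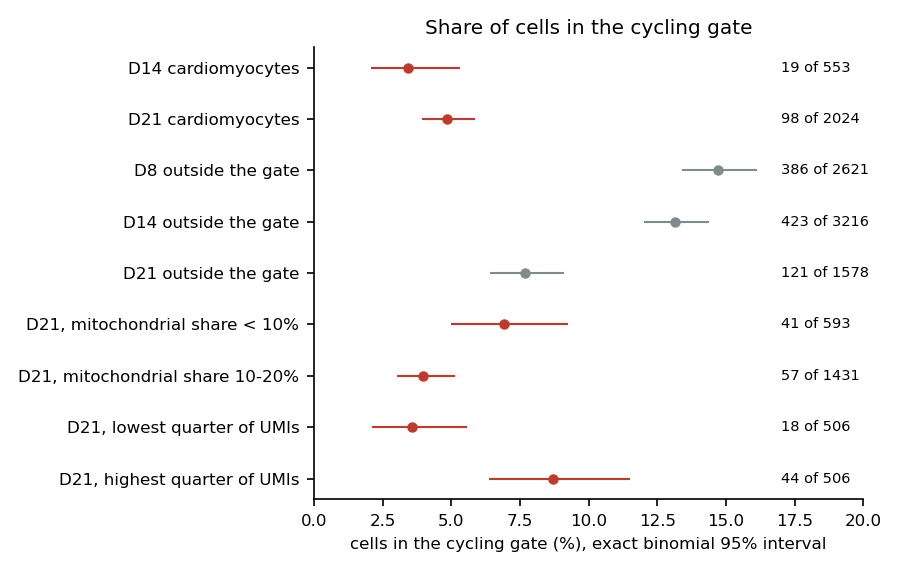
Points give the percentage of cells at or above the cycling threshold and bars the exact binomial 95% interval, for CMs (red) and for cells outside the CM gate (grey), with cell numbers at the right. D21 CMs lie at 4.84%, below the 7.67% of D21 cells outside the gate, and at 8.70% in the 506 deepest CMs.

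The UMIs of the cells in each group were summed and given as CPM (the count scaled to a total of 1000000 UMIs). Of 3009 genes at 50 CPM or more in either group, the gate genes left out, 261 (8.67%) were 2-fold or more higher in cycling CMs and 30 (0.997%) were 2-fold or more lower. The median log2 ratio over these genes was 0.06. Since the cells were selected on genes that vary together with the rest of the cell cycle, these numbers describe the gate. The fixed cell cycle lists held 83 of the 261 higher genes. The same comparison at D14, between 19 and 534 CMs, had 264 genes 2-fold or more higher (7.98% of those measured), of which 171 were shared with D21 (65.5% of the D21 genes and 64.8% of the D14 genes). In D21 cells outside the CM gate, where 121 cycling cells were set against 1457 others, 252 genes were 2-fold or more higher (8.63%), and 185 were shared (70.9% of the CM genes and 73.4% of the genes outside the gate). Of the lower genes, 6 of the 30 were among the 59 at D14 (1.78% of genes measured there, the overlap being 20% and 10.2% of the lists), and 5 were among the 173 outside the gate (5.93% of genes, 16.7% and 2.89% of the lists). Many of the lower genes could not be called in the other comparisons, since 20 of the 30 were at 50 CPM at D14 and 9 outside the gate, against 215 and 218 of the 261 higher genes.

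Genes of G2 and M phase, the phases of most cycling gate genes, stood furthest from the other CMs. Of 49 listed genes, all were at 10 CPM or more, where 7.99% of all 8693 genes were 2-fold or more higher and 1.58% were lower. In this list 48 were 2-fold or more higher and none lower, with a median log2 ratio of 5.17 against 0.09 over all genes, and CTCF alone was within 2-fold at 0.52. Some, CDC20 and PLK1 among them, reached 10 CPM only in the cycling CMs, so that this count describes the gate. CDC20, the activator of the anaphase-promoting complex, was at 247 CPM in cycling and 2.93 CPM in other CMs, 83.4-fold higher with 1 count added to each sum. Per cell it ran from 0 to 15.9 UMIs per 10000 with a median of 1.59 in cycling CMs, and 24 of the 98 had none. PLK1, the polo-like kinase of mitotic entry, was at 180 CPM against 2.13 CPM. CCNB1, the cyclin of the mitotic kinase CDK1, was at 451 CPM against 8.30 CPM (log2 5.76, 95% interval 5.54 to 5.99), and CDK1 itself at 233 against 5.02 CPM. After thinning to 4000 UMIs, CCNB1 was seen in 62.2% of cycling CMs, 3.22% of other CMs and 3.09% of non-cycling cells outside the gate, whose median depth was 14905 UMIs. Without thinning the shares were 81.6% and 9.40% in the CM groups.

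The 15 genes with the largest ratios, leaving out the gate genes, were FAM83D, KIF14, CENPA, PIF1, NEK2, CEP55, AURKB, HJURP, NDC80, SAPCD2, GTSE1, CDC20, PLK1, CKAP2L and CCNA2, with log2 ratios of 6.29 to 6.72. Most act on the chromosome segregation machinery. CENPA is the histone variant that marks centromeres and HJURP its chaperone, and NDC80 anchors microtubules at the kinetochore. AURKB is the kinase of the chromosomal passenger complex, NEK2 a kinase of centrosome separation, and CCNA2 the cyclin of S phase and G2. CENPA was at 93.3 CPM in cycling CMs (78.8 to 110) and 0.913 CPM in other CMs (0.585 to 1.36). FAM83D, a protein of the mitotic spindle, was at 87.6 against 0.799 CPM. At D14 the log2 ratios of CENPA and FAM83D were 6.19 and 5.14, and outside the CM gate at D21 they were 6.95 and 4.91. All 15 stayed 2-fold or more higher under each of the 18 alternatives run, CENPA between 5.05 and 7.36. The 15 were picked for the largest ratios in these same cells, so that this outcome was nearly fixed in advance.

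Promoters are shown because genes of mitosis and of DNA replication were higher together. Their difference in degree describes the gate, which holds mostly genes of G2 and M phase. The sequences come from RefSeq (GRCh38.p14) and run over 300 bases around the annotated start, whereas the deposited counts were made on hg19. CENPA, CDC20 and PLK1 stand for the genes with the largest ratios, MCM6 and CDC6 for DNA replication. Capitals mark 3 motifs on either strand: the cell cycle homology region of DREAM and B-MYB targets (CHR, TTTGAA or TTTAAA), the CCAAT box of NF-Y (CCAAT), and the E2F site (TTTGGCGC, TTTCGCGC, TTTCCCGC or TTTGGCGG). Sites are at chr2:26785806-26786105 on the plus strand for CENPA, chr1:43358731-43359030 (plus) for CDC20, chr16:23678639-23678938 (plus) for PLK1, chr2:135876394-135876693 (minus) for MCM6 and chr17:40287629-40287928 (plus) for CDC6, each written 5′ to 3′ on the strand of the gene.
CENPA: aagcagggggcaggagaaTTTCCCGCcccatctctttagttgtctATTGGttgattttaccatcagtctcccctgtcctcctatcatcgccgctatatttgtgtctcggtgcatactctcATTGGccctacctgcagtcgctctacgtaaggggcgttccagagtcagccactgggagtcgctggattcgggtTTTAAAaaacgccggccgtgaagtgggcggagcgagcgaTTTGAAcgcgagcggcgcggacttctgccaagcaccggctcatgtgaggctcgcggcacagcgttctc
CDC20: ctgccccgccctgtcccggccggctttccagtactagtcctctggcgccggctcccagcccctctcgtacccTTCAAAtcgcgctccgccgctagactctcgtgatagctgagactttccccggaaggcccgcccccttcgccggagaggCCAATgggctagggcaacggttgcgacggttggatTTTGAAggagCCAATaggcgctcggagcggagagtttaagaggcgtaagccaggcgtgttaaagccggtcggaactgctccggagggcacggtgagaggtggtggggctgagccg
PLK1: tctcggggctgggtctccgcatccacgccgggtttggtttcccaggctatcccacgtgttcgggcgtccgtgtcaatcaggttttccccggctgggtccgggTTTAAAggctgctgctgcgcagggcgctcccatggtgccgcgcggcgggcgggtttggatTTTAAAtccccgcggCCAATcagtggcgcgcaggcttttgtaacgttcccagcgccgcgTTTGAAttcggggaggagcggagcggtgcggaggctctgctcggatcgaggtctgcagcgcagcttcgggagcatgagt
MCM6: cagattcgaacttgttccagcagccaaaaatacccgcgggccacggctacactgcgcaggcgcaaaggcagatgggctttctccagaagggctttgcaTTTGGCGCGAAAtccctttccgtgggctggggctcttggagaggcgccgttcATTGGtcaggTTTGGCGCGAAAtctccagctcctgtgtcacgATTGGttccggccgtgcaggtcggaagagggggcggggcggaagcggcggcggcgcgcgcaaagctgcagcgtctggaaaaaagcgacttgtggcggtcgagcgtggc
CDC6: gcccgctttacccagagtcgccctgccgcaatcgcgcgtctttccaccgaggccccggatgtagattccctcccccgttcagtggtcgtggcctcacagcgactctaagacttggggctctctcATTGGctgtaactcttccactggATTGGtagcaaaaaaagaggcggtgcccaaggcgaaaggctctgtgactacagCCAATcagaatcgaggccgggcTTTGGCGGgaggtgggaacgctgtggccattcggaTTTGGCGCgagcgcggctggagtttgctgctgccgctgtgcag

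The CHR letters occurred 2 times in the CENPA window, 2 times in that of CDC20 and 3 times in that of PLK1, with 2, 2 and 1 CCAAT boxes, and E2F letters matched once in that of CENPA. In MCM6 and CDC6 they did not occur, and the E2F letters matched 4 and 2 times, counted over both strands. Over all 27305 promoters the CHR was found in 24.3%, the CCAAT box in 35.7% and an E2F match in 3.43%, and matches of different motifs overlapped in 58 windows. Promoters were found for 14 of the 15 leading genes, of which 11 held a CHR and 13 a CCAAT box. Of the G2 and M phase genes, 41 of 49 had a promoter entry and 31 of these (75.6%) held a CHR. The measured S phase genes had 27 entries of 37, in which the CHR was found in 5 (18.5%), the CCAAT box in 19 (70.4%) and E2F letters in 13 (48.1%). Over all higher genes with an entry, 90 of 204 (44.1%) held a CHR and 25 (12.3%) an E2F match. For the genes that were lower the numbers were 5 and 0 of 18, and for measured sarcomere genes 3 and 0 of 14. A match describes letters in the window and not a site in use.

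S phase genes were higher in cycling CMs, by less than the mitotic genes. The cycling gate is a sum of genes mostly of G2 and M phase, and CMs high for S phase genes alone stay among the other CMs. The difference in degree between these lists therefore describes the gate. Of 43 listed genes, 40 were in the table and 37 were at 10 CPM or more. Of these, 33 were 2-fold or more higher and none lower, against 7.99% and 1.58% of all genes at 10 CPM. S phase genes vary together with the gate as well, and some, such as RRM2, reached 10 CPM only in the cycling CMs. The count therefore describes the gate too. The median log2 ratio was 1.80. TYMS, thymidylate synthase, was at 532 CPM (497 to 569) in cycling and 44.8 CPM (42.3 to 47.5) in other CMs. RRM2, the regulated subunit of ribonucleotide reductase, was at 221 against 5.75 CPM. PCNA, the sliding clamp of DNA polymerase, was at 145 against 40.5 CPM, with no UMI in 50 of the 98 cells. Replication licensing genes were closer to the other CMs: MCM6 had a log2 ratio of 1.51, MCM5 of 1.18 and MCM2 of 1.21. UHRF1, MLF1IP and CASP8AP2 were not among the row names used here.

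Per cell, the summed S phase genes had a median of 16.5 UMIs per 10000 in cycling CMs (3.47 to 87.6) and 4.66 in other CMs. The summed G2 and M phase genes had a median of 83.1 (22.1 to 310) and 8.07. All 98 cycling CMs lay above the 95th percentile of the other CMs for the G2 and M phase sum (18.1), and 44 of them also lay above it for the S phase sum (17.8). The remaining 54 were high for G2 and M phase only. Of the other CMs, 32 were above both percentiles, 65 above that for S phase only and 65 above that for G2 and M phase only. The cycling gate is a sum of genes mostly of G2 and M phase, so that the absence of members high for S phase alone follows from the gate. Across the 98 cycling CMs, which share 1 library, Pearson's r between both sums was −0.02, given as a description.

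The 44 cycling CMs with a high S phase sum were set beside the other 54 as a description of how the members vary. Of 47 G2 and M phase genes at 50 CPM or more in either set, 5 were 2-fold or more higher in the cells with a high S phase sum and none was lower, among 3151 genes of which 123 were higher and 38 lower. CDK1 was at 342 against 130 CPM and AURKB at 225 against 58.9 CPM. CCNB1 was at 429 against 471 CPM (log2 −0.14, −0.35 to 0.08) and PLK1 at 186 against 174 CPM (log2 0.10, −0.25 to 0.44), with intervals that hold 0. The sarcomere genes had a median log2 ratio of −0.15 between the sets. MYL2, the ventricular regulatory light chain, was at 331 CPM in the cells with a high S phase sum and 90.8 CPM in the others, a difference to which 1 cell contributed 90 UMIs.

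Genes of cytokinesis were 2-fold or more higher in 11 of 12 cases, against 7.99% of all genes at 10 CPM. These genes vary together with the cycling gate, and AURKB, CDCA8 and KIF23 are also in the G2 and M phase list. Several, ANLN and ECT2 among them, reached 10 CPM only in the cycling CMs, so that the count describes the gate. Their median log2 ratio was 4.97. ANLN, the anillin scaffold of the contractile ring, was at 225 against 8.49 CPM. ECT2, the exchange factor that activates RHOA at the cleavage furrow, was at 106 against 5.52 CPM, and RACGAP1 and KIF23, which form the centralspindlin complex, had log2 ratios of 4.79 and 4.94. RHOA was at 263 against 190 CPM. PRC1, which bundles the midzone microtubules, was found in all but 8 of the 98 cells.

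The transcription factors of the cell cycle differed among themselves. FOXM1 was at 99.6 against 2.63 CPM and MYBL2, which encodes B-MYB, at 81.3 against 4.07 CPM. E2F1 had a log2 ratio of 2.20 and its partner TFDP1 of 1.01. The pocket protein RB1 had a log2 ratio of 0.45 and RBL2 of 0.76, both within 2-fold. In this list 6 of 11 measured genes were 2-fold or more higher and none lower, against 7.99% and 1.58% of all genes at 10 CPM. FOXM1 and MYBL2 reached 10 CPM only in the cycling CMs, so that the count follows in part from the gate.

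The G1 list was mixed, with 2 of 7 measured genes 2-fold or more higher and 1 lower. Over all genes at 10 CPM the shares were 7.99% and 1.58%. The D-type cyclins of the list differed among themselves. CCND1, cyclin D1, was at 38.4 CPM (29.4 to 49.4) in cycling CMs and 83.8 CPM (80.3 to 87.4) in other CMs, a log2 ratio of −1.10. CCND2 was at 59.9 against 107 CPM (log2 −0.83). In thinned cells CCND1 was seen in 13.3% of cycling and 28.3% of other CMs, and in 35.3% of non-cycling cells outside the gate. Unthinned, it was seen in 32.7% and 56.9% of the CM groups. CCND1 stayed below 0 under all 18 alternatives (−1.67 to −0.84), and its log2 ratio was −0.86 at D14 and −0.48 outside the CM gate. CCND3 and CDK6 had log2 ratios of 0.35 and 0.06, and CDK4 of 0.33.

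Of 6 measured inhibitors of cyclin-dependent kinases, 4 were 2-fold or more higher in the cycling CMs, against 7.99% of all genes at 10 CPM. CDKN2C and CDKN2D were below 10 CPM in other CMs and entered only through the cycling CMs. The count therefore follows in part from the gate. CDKN2C, which encodes p18, was at 41.6 against 0.761 CPM (log2 5.72), CDKN2D, which encodes p19, at 93.9 against 8.56 CPM, and CDKN3, a phosphatase of CDK1 and CDK2, at 321 against 12.7 CPM. CDKN1B, which encodes p27, was at 58.6 against 26.8 CPM. CDKN1A, the p53 target p21, was at 100.2 against 151 CPM (log2 −0.58), and CDKN1C, p57, was at 54.8 against 52.8 CPM. The 9 measured p53 targets were all within 2-fold, with a median log2 ratio of −0.24. The 95% interval for CDKN1A was −0.83 to −0.36 at D21, and its log2 ratio was 0.05 at D14 and −0.94 outside the CM gate.

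Chromatin and tubulin genes, which package chromosomes and build the spindle, were 2-fold or more higher in 13 of 14 cases. The share over all genes at 10 CPM was 7.99%. The median log2 ratio of the list was 2.35. Since these genes vary together with the cycling gate, the count describes the gate. TUBA1B was at 4239 against 743 CPM and found in every cycling CM, H2AFZ at 1506 against 221 CPM, and STMN1, which destabilises microtubules, at 1467 against 210 CPM. PTMA was the exception at a log2 ratio of 0.89. Tubulin and histone genes have near-identical copies, and the sources used here do not give how reads that fit several copies were counted.

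Sarcomere genes outside the gate were lower in the cycling CMs in most cases. Of 22 genes at 50 CPM or more, 21 had a log2 ratio below 0, 3 of them (TCAP, SYNPO2L and MYL2) past 2-fold where 0.997% of all genes were, and the median was −0.57 against 0.06 over all genes. TCAP stayed past 2-fold under all 18 alternatives, SYNPO2L under 14 (up to −0.44) and MYL2 under 12 (up to −0.65). MYL3, the ventricular essential light chain, was at 5624 against 9126 CPM (log2 −0.70), TNNC1, cardiac troponin C, at 4533 against 7155 CPM, and ACTC1, cardiac actin, at 10131 against 12001 CPM (log2 −0.24). The CM sum used by the gate was itself lower in the cycling CMs, and when comparison CMs were drawn to match it the median of the list was −0.26. With 4% in place of 2% for the CM sum it was −0.39. Outside the CM gate the median of the list was 0.09, and at D14 it was −0.22. TMM scaling shifted the median of all genes by −0.11 on the log2 scale and left the median of the list at −0.67.

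TCAP, telethonin, which caps titin at the Z-disc, had the smallest ratio of all genes measured at 50 CPM. It was at 72.5 CPM (59.8 to 87.0) in cycling CMs and 353 CPM (346 to 360) in other CMs, 4.83-fold lower with 1 count added to each sum. In single cells it ran from 0 to 7.60 UMIs per 10000 with no UMI in 50 of the 98 cycling CMs, and the median was 2.14 in the other CMs, where the highest value was 40.5. After thinning it was seen in 20.4% of cycling CMs, 57.1% of other CMs and 7.28% of non-cycling cells outside the gate, and without thinning in 49.0% and 81.7% of the CM groups. The log2 ratio of TCAP was −2.27 and stayed between −3.24 and −1.84 under the 18 alternatives, at −0.95 at D14 and −0.09 outside the CM gate. The groups overlapped in single cells, since some cycling CMs were above the median of the others.

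The other leading lower genes held further muscle chaperones and enzymes. HSPB8 and HSPB3, small heat shock proteins of muscle, had log2 ratios of −1.69 and −1.35, with HSPB8 at 23.3 against 77.2 CPM and HSPB3 at 162 against 415 CPM. PYGM, the muscle glycogen phosphorylase, was at 16.4 against 51.2 CPM, and PGAM2, the muscle form of phosphoglycerate mutase, at 182 against 440.1 CPM (log2 −1.27). ACOT11, an acyl-CoA thioesterase, was at 56.1 against 147 CPM. HRC, the histidine-rich calcium binding protein of the sarcoplasmic reticulum, was at 62.4 (50.7 to 75.9) against 158 CPM (153 to 163). The remaining 3 were ANKRD45, BEX2 and HIST1H2BK, with log2 ratios of −1.47, −1.29 and −1.36. All 10 stayed below 0 under 17 of the 18 alternatives, and ANKRD45 turned to 0.81 when the cycling cut was lowered to 4 UMIs per 10000. The 10 were picked for the smallest ratios in these same cells, which favours such an outcome. With comparison CMs matched on the CM sum, 7 of the 10 stayed 2-fold or more lower.

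Over all 30 lower genes the median log2 ratio was −1.10, and the same genes had medians of −0.85 at D14 and −0.17 in cells outside the CM gate. HIST1H2BK and BEX2 were lower in cycling cells outside the gate as well (log2 −2.15 and −1.10), whereas ACOT11 and HSPB8 were at 0.03 and 0.35 there. Genes of muscle were at low levels outside the gate, PYGM at 2.70 and 4.08 CPM, and their ratios there rest on few UMIs.

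For a few genes 1 cell decided the summed value, a check added after the values were seen. ACTA1, skeletal actin, appeared higher in cycling CMs at 121 against 34.9 CPM (log2 1.80). However, 171 of its 192 UMIs (89.1%) came from 1 cell, 92 of the 98 had none, and without that cell the log2 ratio was −1.32. NPPA, atrial natriuretic peptide, was at 407 against 274 CPM (log2 0.57), with 346 of 646 UMIs in 1 cell and a log2 ratio of −0.50 without it. NPPB, brain natriuretic peptide, turned from 0.29 to −1.95 without the cell that held 130 of its 163 UMIs. MYL2 was at 208 against 425 CPM (log2 −1.03), with a log2 ratio of −1.46 without the cell that held 27.3% of its UMIs. These were 4 different cells, with doublet scores of 0.0393 to 0.0596 from the caller that did not work in this library. Their cycling sums were 11.8 (ACTA1), 46.5 (NPPA), 8.41 (NPPB) and 11.1 (MYL2) UMIs per 10000. The cell with the most MYL2 held 19 fibroblast marker UMIs and the others 0 to 7. For TCAP the highest cell held 8.70% of the UMIs, and without it the log2 ratio was −2.38.

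Paired isoforms were read as shares of their summed UMIs. MYH7, the beta myosin heavy chain, made up 5.55% of MYH6 and MYH7 UMIs in cycling CMs (5.15 to 5.98%) and 5.39% in other CMs (5.30 to 5.47%), intervals that overlap. At D14 the share was 0.955% in cycling and 0.736% in other CMs. TNNI3, the adult troponin I, was 0.460% of TNNI1 and TNNI3 UMIs in cycling and 0.487% in other CMs, intervals that overlap. At D14 it was 3.20% (2.42 to 4.14%) in 19 cycling and 1.91% (1.80 to 2.02%) in other CMs, intervals that do not overlap. MYL2 was 1.15% of MYL2 and MYL7 UMIs in cycling CMs (1.03 to 1.28%) and 1.83% in other CMs (1.79 to 1.86%), with MYL2 at 0 in 43 of the 98 cells. MYL3 was 51.5% and 54.0% of MYL3 and MYL4. The log2 ratios of MYH7 and TNNI3 themselves were −0.46 and −0.51 and turned sign under some alternatives, with highest values of 0.07 and 0.21.

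Calcium handling genes lay below the other CMs. All 9 measured genes had a log2 ratio below 0, with a median of −0.72. Past 2-fold were 2 of them, against 1.58% of all genes at 10 CPM. ATP2A2, the SERCA2 pump of the sarcoplasmic reticulum, was at 616 against 1013 CPM, and its inhibitor PLN at 1752 (1687 to 1818) against 2884 CPM (2863 to 2904). RYR2, the calcium release channel, was at 125 against 209.6 CPM, and SLC8A1, the sodium-calcium exchanger, at 274 against 425 CPM. PLN stayed between −0.84 and −0.46 under the alternatives. Outside the CM gate the median of these genes was 0.10.

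Ion channel, junction and transcription factor genes had few members past 2-fold. Over all genes at 10 CPM the shares were 7.99% higher and 1.58% lower, and in lists this short few or no calls are near those shares. The 9 ion channel genes at 10 CPM had a median log2 ratio of −0.17, and the 4 at 50 CPM one of −0.56, where the sarcomere list had −0.57. Among the channels, CACNB2, a calcium channel subunit, was at 22.7 against 51.5 CPM (log2 −1.15), and HCN4, the pacemaker channel, at 54.8 against 47.8 CPM. None of the 9 intercalated disc genes was past 2-fold, and DSG2, a desmosomal cadherin, had the log2 ratio 0.89. NKX2-5, a core cardiac transcription factor, was at 314 CPM (287 to 343) against 326 CPM (319 to 333). GATA4 was at 106 CPM with a log2 ratio of 0.19, and TBX5 at 32.1 against 30.5 CPM. The 14 measured cardiac transcription factors had a median log2 ratio of −0.08, with none past 2-fold.

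The chamber lists were mixed. The ventricular list had a median log2 ratio of −0.48 over 5 genes, MYL2 and MYL3 among them, with IRX4 at −0.45, HEY2 at −0.48 and HAND1 at 0.00. The atrial list had a median of 0.10 over 5 genes, 3 of them above 0. NPPA is 1 of these 3, and without the cell that held most of its UMIs its log2 ratio was −0.50, which leaves 2 of the 5 above 0 and puts the median below 0.

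In metabolism no listed gene of glycolysis, fatty acid oxidation or respiration passed 2-fold, with medians of −0.07 (17 genes), −0.21 (17 genes) and −0.22 (15 genes). Over all genes at 10 CPM, 7.99% were 2-fold or more higher and 1.58% lower. LDHA, lactate dehydrogenase A, was at 405 against 319 CPM (log2 0.35) and ENO1, enolase, at 347 against 278 CPM. FABP3, the fatty acid binding protein of heart, was at 601 against 1087 CPM (log2 −0.85), and SLC25A4, the mitochondrial ADP/ATP carrier of muscle, at 545 against 995 CPM (log2 −0.87). CKM, muscle creatine kinase, was at 198 against 326 CPM. The 13 genes of the mitochondrial genome all had log2 ratios below 0, with a median of −0.22, and all cells had passed a cut on these genes.

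Growth signalling genes had a median log2 ratio of 0.05. Past 2-fold were 1 of 10 measured genes in each direction, where 7.99% of all genes at 10 CPM were higher and 1.58% lower. The count of higher genes is near that share. None of the 10 YAP targets (median 0.15) was past 2-fold. ERBB2 and ERBB4, receptors of neuregulin signalling, had log2 ratios of −0.29 and −0.26. IGF2 was at 1357 against 1059 CPM (log2 0.36) and stayed above 0 under all alternatives (0.04 to 0.44). FGFR2 had a log2 ratio of 1.12 at 16.4 against 7.76 CPM, or 26 UMIs in the cycling CMs. CTGF, a target of YAP, had a log2 ratio of 0.57, and ANKRD1 one of −0.08.

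Markers of other cell types moved with the groups too, with a median log2 ratio of 0.83 over 7 fibroblast genes and −0.95 over 8 hepatic genes. The summed fibroblast markers were at 576 CPM in cycling and 377 CPM in other CMs, against 3881 CPM in cycling cells outside the gate, and 6 of the 7 measured markers had a log2 ratio above 0. The excess sat in few cells: 16 cycling CMs (16.3%, 9.63 to 25.2%) had 10 or more fibroblast marker UMIs, compared with 170 other CMs (8.83%, 7.60 to 10.2%). With such cells left out of both groups, an alternative added after the data were seen, 4.46% of the CMs were cycling, with 283 genes higher and 40 lower, and the medians of the sarcomere and S phase lists were −0.56 and 1.82. Smooth muscle markers had a median of 9.69 UMIs per 10000 in cycling and 8.90 in other CMs, ACTA2 being at 1157 against 818 CPM. Hepatic markers, which were found in every kept D21 cell, had medians of 10.7 and 12.9 UMIs per 10000. Their 95th percentiles were 31.3 and 92.3 and their highest values 356 and 827. The CM groups thus differed more in the upper tail of cells than in the median. All 8 hepatic genes had a log2 ratio below 0 with intervals below 0, 2 of them past 2-fold (1.58% of all genes at 10 CPM). Summed, they were at 1549 against 2867 CPM, with 54187 CPM in the non-cycling cells outside the gate, and their part in the differences between the CM groups was not tested.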

How the data were processed

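The authors deposited 1 merged table of UMI counts, whole numbers for 32738 genes and 17327 barcodes from 3 droplet libraries (10x Chromium, 1 per day), not normalized. Per the labels the submitters' processing notes name Cell Ranger, Seurat 3.2.1 and hg19. Their roles and the treatment of reads that fit several genes were not given in those sources. Barcodes with 2001 to 7499 genes and under 20% mitochondrial UMIs were kept, where the study used 10%. The CM and cycling gates are given with the results. The members, comparison cells and gene lists were chosen with earlier results of these data known. D8 and D14 cells were used for comparison.

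Raw counts were summed per group and given as CPM of the group total, with exact Poisson 95% intervals. Log2 ratios had 1 count added to each sum and exact conditional intervals, and shares had exact Clopper-Pearson intervals. With 1 library per day no test was possible, no p-value was computed, and all intervals cover counting error only. Depth was 4968 to 33287 UMIs per member, and 3 counts over the members correspond to 1.89 CPM. Genes entered at 50 CPM in either group, or at 10 CPM for the lists where so stated. The added count raises the ratio of genes with few UMIs in the smaller group. Genes that could be named were those of the lists, of which examples are given, and the 15 genes with the largest and the 10 with the smallest ratio, without the 10 gate genes and the mitochondrial genome. Shares of cells with a UMI were read after thinning to 4000 UMIs, and no cell was too shallow. Doublets were scored with Scrublet in scanpy, and all barcodes were kept because the caller marked 3 of 3602 at D21. On simulated counts for 7890 genes, 200 of them changed, 96.1% of intervals held the true ratio. These counts were Poisson draws of the group sums, the model behind the intervals, without spread between cells. The result therefore checks the calculation and not the intervals on real cells. Alternatives varied the gates, limits, scaling, filter and comparison cells. Those without an upper limit on genes and with at least 3 of the 6 cycling genes selected the same 98 and 1926 cells. They therefore repeat the main values. Analysis used Python 3.11.15, numpy 2.4.6, pandas 2.3.3, scipy 1.17.1, scanpy 1.11.5, anndata 0.12.19, matplotlib 3.10.9, R 4.3.3 and edgeR 4.0.16, the last for TMM factors only.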

Additional observations from a re-analysis of the deposited data

How the results depend on the processing

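No paired analysis was possible because each day had 1 library. For the same reason leaving out a replicate was not possible. The comparison cells matched on the CM sum and the removal of cells with 10 or more fibroblast marker UMIs were chosen after seeing the data.

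The share of cycling CMs, 4.84%, was 7.26% with the cycling cut at 4 UMIs per 10000, 2.57% at 20, 2.06% with the CM cut at 4% and 6.91% with the mitochondrial limit at 10%. Under the other 8 alternatives it was 4.05 to 5.19%. The 261 higher genes became 210 to 320 under 19 alternatives, 695 at 10 CPM and 19538 with no filter. Of these last, 12590 had no UMI in either group and 16627 none in the cycling CMs, so that their ratio is set by the added count and the unequal totals. The 30 lower genes became 10, 47 and 57 at cycling cuts of 4, 12 and 20, 60 with the CM cut at 4%, and 46 with the mitochondrial limit at 10%. They became 53 with TMM, 52 with median-of-ratios scaling, 50 with the mitochondrial genome and gate genes out of the total, 137 at 10 CPM and 478 with no filter. The other 11 alternatives gave 23 to 41. The median of the sarcomere genes, −0.57, was −0.71 and −0.79 at cycling cuts of 12 and 20, −0.39 with the CM cut at 4% and −0.26 with matched CM sums, and −0.67 to −0.54 under the other 14. The median of the S phase genes was 1.45 to 1.91 under all 18 alternatives run. The medians of the sarcomere and S phase genes kept their sign under all 18 alternatives, whereas a share or a count has no sign to turn. The cause of the changes listed here was not tested. Few cells limit single genes: 3 counts over the 98 cells correspond to 1.89 CPM, and a gene with no UMI there is not shown to be off.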
